A study of Rattus norvegicus with 6 samples.

Results

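The 10 genes described here encode the early inflammatory cytokines Il1a, Il1b, Il6 and Tnf, the CXC chemokines Cxcl1, Cxcl2 and Cxcl6, and the CC chemokines Ccl3, Ccl4 and Ccl20. They were taken by name. A gene was represented by its brightest probe set, as a mean over the 6 arrays, among those annotated to no other gene. All 10 were measured, and each had 1 such probe set, among 18166 genes in all. RNA from cerebral arteries of male rats was hybridised to 6 Affymetrix arrays. The 3 arrays of the subarachnoid haemorrhage (SAH) group, numbered 1, 4 and 5, held arteries taken 6 hours after bleeding into the space that surrounds the brain. The 3 arrays of the sham group, numbered 6, 7 and 8, held arteries of rats that had undergone a sham operation, for which the labels give no time. The labels give no strain or age and do not say whether each array came from another rat, so p-values here measure only the spread among these samples, which may be technical. All values are the authors' log2 expression values, on which 1 unit is a doubling.

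Interleukin-1, tumour necrosis factor and interleukin-6 are the first cytokines released by injured tissue and by activated macrophages, and they act on endothelium, smooth muscle and leukocytes. Interleukin-1 and tumour necrosis factor activate the transcription factor NF-kappaB, which in turn switches on many of the genes that encode these cytokines and chemokines. Cxcl1, Cxcl2 and Cxcl6 bind the receptor Cxcr2 and draw neutrophils, Ccl3 and Ccl4 attract monocytes and other leukocytes, and Ccl20 acts on Ccr6. After a bleed around the brain such signals are studied as part of the early response of the arterial wall.

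The promoters are shown as background, and any link of their motifs to the values given below was not tested. The table of RefSeq promoters for the GRCr8 assembly held 8 of the 10 genes, all but Ccl3 and Ccl4. The 250 bases before the annotated start were searched on both strands. For Il1a and Ccl20 that start lay inside the gene's own RefSeq bounds, so their windows hold some bases of the gene. The Il1a window, bases 136990018 to 136990267, lies mostly within the gene, which reaches base 136990236. Capitals mark matches to the NF-kappaB consensus, which is 10 letters long.
Il6 promoter, chr4:5894576-5894825, minus strand: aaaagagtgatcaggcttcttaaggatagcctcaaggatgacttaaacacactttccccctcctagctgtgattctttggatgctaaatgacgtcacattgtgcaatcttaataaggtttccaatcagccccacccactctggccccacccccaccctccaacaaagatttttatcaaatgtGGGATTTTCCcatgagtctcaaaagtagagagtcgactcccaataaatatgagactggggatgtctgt
Cxcl1 promoter, chr14:17479322-17479571, minus strand: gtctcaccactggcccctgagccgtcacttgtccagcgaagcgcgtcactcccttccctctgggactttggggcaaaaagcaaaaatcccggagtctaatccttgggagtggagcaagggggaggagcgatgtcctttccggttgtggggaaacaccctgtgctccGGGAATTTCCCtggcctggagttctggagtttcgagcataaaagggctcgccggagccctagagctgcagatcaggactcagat
Cxcl2 promoter, chr14:17467256-17467505, minus strand: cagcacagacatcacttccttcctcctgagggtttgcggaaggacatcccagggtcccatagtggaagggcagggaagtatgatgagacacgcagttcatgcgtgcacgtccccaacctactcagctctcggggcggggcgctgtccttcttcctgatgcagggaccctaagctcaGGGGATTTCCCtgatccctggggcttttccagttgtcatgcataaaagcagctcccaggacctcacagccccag
Il1b promoter, chr3:137036582-137036831, minus strand: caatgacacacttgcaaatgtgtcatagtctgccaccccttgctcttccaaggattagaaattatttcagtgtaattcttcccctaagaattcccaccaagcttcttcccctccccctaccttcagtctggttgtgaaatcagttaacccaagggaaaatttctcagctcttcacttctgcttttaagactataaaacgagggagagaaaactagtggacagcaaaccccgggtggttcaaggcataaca

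The consensus was found in the windows of Il6, Cxcl1, Cxcl2, Cxcl6 and Ccl20, which are 5 of the 8 searched. It was found in 6.33% of all 33469 promoter windows of this length. The matched letters were GGGATTTTCC in Il6, GGGAATTTCC in both Cxcl1 and Cxcl6, and GGGGATTTCC in Cxcl2. In Cxcl1, Cxcl2 and Cxcl6 the matches on opposite strands overlap, and the capitals cover them together. The Il6 match lay 68 to 59 bases before the start, that of Cxcl1 began 84 bases and that of Cxcl2 74 bases before it. The AP-1 motif TGANTCA reads as itself on the opposite strand. It was found in 1 of the 8 windows, that of Il1a, and in 6.34% of all. That match lay 12 to 6 bases before the start, inside the gene's own bounds. The letters TATAAA were found in the windows of Il1a, Il1b and Tnf and in 12.9% of all. A match is a run of letters and was not tested as a binding site.

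These cytokine and chemokine genes did not separate the SAH arteries from the sham arteries. Sham array 8 carried them at high levels. It was the highest sham array for all 10 genes and the highest of all 6 arrays for 7 of them, whereas sham arrays 6 and 7 were low. Among the SAH arrays, array 5 was the highest for 9 genes and array 1 the lowest for 8. When sham array 8 was set aside, all 10 differences lay above 0, from 0.15 for Cxcl2 to 1.85 for Il6, and none passed the threshold.

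**Figure D1:**
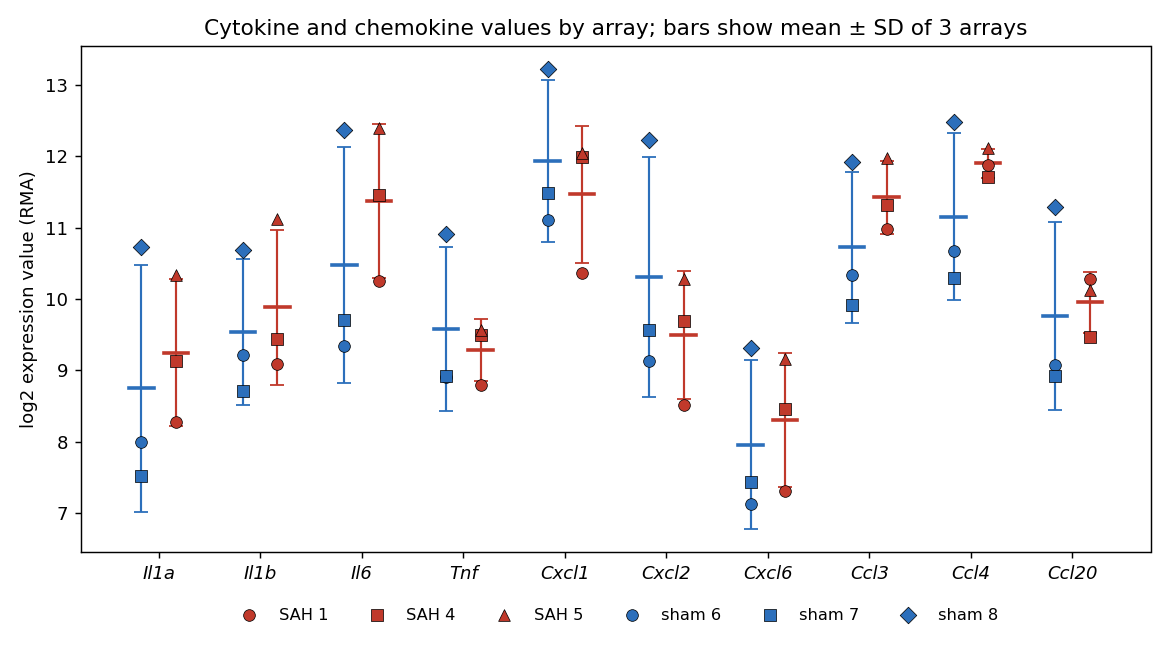
Log2 expression values of the 10 genes (vertical axis) in each of the 3 sham arrays (blue) and 3 SAH arrays (red), with 1 symbol for each array and the mean ± SD of each group as bars. Sham array 8 (blue diamonds) lies above the other sham arrays for every gene, and the groups overlap for all 10.

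Before the comparison of groups, the standing of sham array 8 was measured. Its values exceeded the mean of sham arrays 6 and 7 by 1.73 (Il1b) to 2.97 (Il1a), or 3.32-fold to 7.86-fold, with a median of 2.02. Over all 18166 genes the median of this difference was -0.03. For all 10 genes sham array 8 was at least 1 unit above the higher of the other sham arrays, which held for 0.82% of all genes (149 genes). Being the highest of all 6 arrays, as for 7 of the 10, was seen in 12.8% of all genes. The medians of the 6 arrays over all probe sets lay between 7.31 and 7.37.

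The interleukin-1 genes differed by less than their spread. Il1a, which encodes a form of interleukin-1 released from damaged cells, stood at 8.28, 9.13 and 10.33 after SAH (arrays 1, 4 and 5) and at 8.00, 7.51 and 10.73 after the sham operation (arrays 6, 7 and 8). The means were 9.25 ± 1.03 and 8.75 ± 1.73 (SD, n = 3 each), and the difference was 0.50 ± 0.89 (SE; limma adjusted p = 0.855). Sham array 8 was the highest of the 6, and SAH array 1 lay just above sham array 6. Il1b, whose product is secreted after cleavage by caspase-1, stood at 9.09, 9.44 and 11.13 after SAH (arrays 1, 4 and 5) and at 9.21, 8.71 and 10.69 after the sham operation (arrays 6, 7 and 8). Its difference was 0.35 ± 0.66 (SE; limma adjusted p = 0.866), with a 95% interval of -1.22 to 1.92. SAH array 5 and sham array 8 stood more than 1 unit above the other arrays, 1 from each group.

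Il6, which drives the acute phase response, had the largest difference of the 10. It stood at 10.26, 11.46 and 12.40 after SAH (arrays 1, 4 and 5) and at 9.34, 9.71 and 12.38 after the sham operation (arrays 6, 7 and 8). All SAH arrays were above sham arrays 6 and 7, and sham array 8 reached the level of SAH array 5. The difference was 0.90 ± 0.87 (SE; limma adjusted p = 0.708), with a 95% interval of -1.16 to 2.96. Tnf, which encodes tumour necrosis factor, stood at 8.79, 9.50 and 9.57 after SAH (arrays 1, 4 and 5) and at 8.91, 8.93 and 10.91 after the sham operation (arrays 6, 7 and 8). Sham array 8 was 1.34 above the highest SAH array, and the SAH arrays spanned only 0.78. The Tnf difference was -0.30 ± 0.55 (SE; limma adjusted p = 0.860).

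Among the CXC chemokines that bind Cxcr2, Cxcl1 and Cxcl2 were low in SAH array 1. Cxcl1 stood at 10.36, 11.997 and 12.04 after SAH (arrays 1, 4 and 5) and at 11.10, 11.49 and 13.23 after the sham operation (arrays 6, 7 and 8). Cxcl2 stood at 8.52, 9.69 and 10.29 after SAH and 9.13, 9.56 and 12.23 in sham arteries, in the same order. For both genes SAH array 1 was the lowest of all 6 arrays and sham array 8 the highest, by 1.18 for Cxcl1 and 1.95 for Cxcl2 over the highest SAH array. Cxcl6, the rat gene that RefSeq also lists under the name Cxcl5, stood at 7.31, 8.45 and 9.16 after SAH and 7.12, 7.43 and 9.31 in sham arteries. Here SAH array 1 lay between sham arrays 6 and 7, and sham array 8 was 0.16 above SAH array 5. The differences were -0.47 ± 0.66 for Cxcl1, -0.81 ± 0.84 for Cxcl2 and 0.35 ± 0.67 for Cxcl6 (SE; limma adjusted p = 0.806, 0.727 and 0.868). Cxcl1 and Cxcl2 are close relatives, and how far their probes read each other's transcripts was not tested.

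Of Ccl3 and Ccl4, which attract monocytes, Ccl4 was the most even of the 10 genes among the SAH arrays. Ccl4 stood at 11.87, 11.71 and 12.12 after SAH (arrays 1, 4 and 5) and at 10.68, 10.30 and 12.49 after the sham operation (arrays 6, 7 and 8). The SAH arrays lay within 0.41 of each other, more than 1 unit above sham arrays 6 and 7, and below sham array 8. Ccl3 stood at 10.98, 11.32 and 11.98 after SAH and 10.34, 9.91 and 11.92 in sham arteries, with SAH array 5 and sham array 8 nearly level. The differences were 0.75 ± 0.53 for Ccl4 and 0.70 ± 0.52 for Ccl3 (SE; limma adjusted p = 0.589 and 0.611), with 95% intervals of -0.50 to 1.99 and -0.54 to 1.94. Ccl20, a chemokine for dendritic cells and some T cells, stood at 10.27, 9.47 and 10.13 after SAH and 9.08, 8.93 and 11.29 in sham arteries. It was the gene for which SAH array 5 was not the highest SAH array, and its difference was 0.19 ± 0.61 (SE; limma adjusted p = 0.928).

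None of the 10 genes passed the threshold in either direction (limma, adjusted p under 0.05 over all probe sets), where 0.963% of all genes passed as higher and 0.33% as lower. None had an unadjusted p under 0.05, against 18.6% of all genes. The differences were above 0 for 7 genes and below 0 for 3 (Tnf, Cxcl1 and Cxcl2), with a median of 0.35, beside -0.01 over all genes. The groups overlapped for all 10, whereas the SAH arrays were all above the sham arrays for 11.4% of all genes and all below for 15.4%. With 95% intervals as wide as -2.80 to 1.18 for Cxcl2 and -1.60 to 2.60 for Il1a, these arrays do not show that the levels were alike.

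The spread within groups was large. In the sham group the SD ran from 1.03 (Il1b) to 1.73 (Il1a), with a median of 1.18, against 0.11 over all genes, and for all 10 genes it was above the 99th percentile of all genes. In the SAH group the median SD was 0.92, against 0.15 over all genes, and 9 of the 10 were above the 90th percentile. The exception was Ccl4, whose SD of 0.21 lay at the 69.3rd percentile. Sham arrays 6 and 7 alone differed by a median of 0.38 over the 10 genes, and by 0.11 over all genes.

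**Figure D2:**
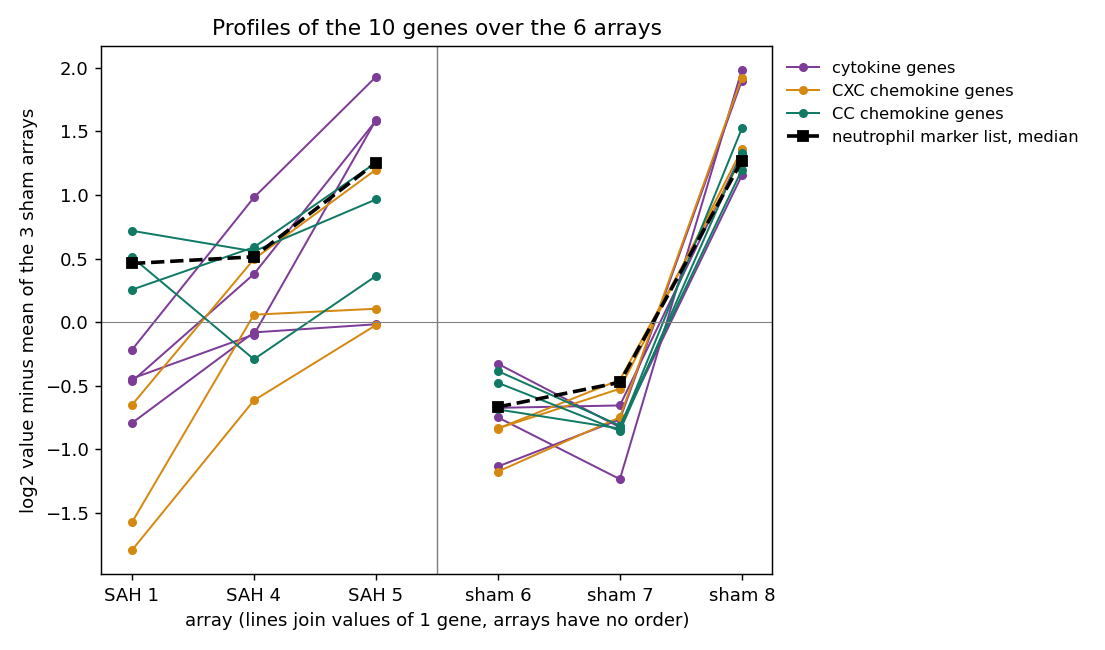
Each line joins the values of 1 gene, as log2 value minus its mean over the sham arrays (vertical axis), in the 3 SAH arrays and, apart, the 3 sham arrays, and the dashed line is the median over the neutrophil marker list. Sham array 8 is the highest sham array for all 10 genes and for the marker list. Sham arrays 6 and 7 are low beside it. SAH array 5 is the highest SAH array for the marker list and for 9 genes, all but Ccl20. Ccl4 is high in all 3 SAH arrays. In SAH array 1 the marker median stands at 0.46 and Cxcl1 and Cxcl2 are at their lowest.

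As a median over their list, neutrophil markers were high in sham array 8 and SAH array 5, as these genes were, but they differed in SAH array 1. There the median, relative to the sham mean of each gene, was 0.46 for the markers and -0.45 for the 10 genes. Of 19 listed, 16 were measured, none passed the threshold, and 10 of the 16 were at least 1 unit higher in sham array 8 than in either other sham array. The mean level over the list was 8.63, 8.66 and 9.39 after SAH (arrays 1, 4 and 5), and 7.35, 7.57 and 9.12 after the sham operation (arrays 6, 7 and 8). S100a9, a calcium-binding protein abundant in neutrophils, stood at 9.47, 9.92 and 10.96 after SAH and 6.68, 7.34 and 10.63 in sham arteries. Mpo, Elane and Ltf, 3 granule genes of the list, stayed between 6.36 and 6.97 on every array, which is below the median of every array. The background control probe sets averaged 5.11 to 5.47. Other markers of the list were not flat. Mmp8 stood at 9.28, 9.81 and 10.70 after SAH and 6.65, 6.97 and 10.58 in sham arteries. Without sham array 8, 1 of the 16 passed as higher, where 0.495% of all genes did. It was Fcnb, which encodes a ficolin (2.65 ± 0.30, SE; limma adjusted p = 0.0417). The mean level over the 13 monocyte and macrophage markers was 9.79, 9.82 and 9.76 in the SAH arrays and 9.65, 9.47 and 10.07 in the sham arrays, but its members differed in both directions, 8 above 0 and 5 below, and none passed with all arrays. Ccr2, the receptor of recruited monocytes, stood at 9.94, 10.17 and 10.33 after SAH and 7.41, 7.65 and 9.82 in sham arteries, with sham array 8 nearest to the SAH arrays. It differed by 1.86 ± 0.59 (SE; limma adjusted p = 0.228), and it passed without sham array 8 (2.62 ± 0.16, adjusted p = 0.0163). Fcnb and Ccr2 were themselves high in sham array 8, so their passing without it is a description. Cd163 and Mrc1, scavenger receptors of resident macrophages, differed by -1.29 ± 0.44 and -1.24 ± 0.39 (SE; limma adjusted p = 0.250 and 0.218), and sham array 8 was the highest array for both. The part of leukocytes in the cytokine values was not tested, and in such tissue samples fewer cells of a type and less RNA per cell cannot be told apart. Of the markers of the labelled tissue, the smooth muscle genes Tagln and Des read at least 13.22 on every array, and the endothelial gene Cdh5 at least 10.93. The differences of the 6 measured smooth muscle markers were all below 0, with a median of -0.33. For 5 of them the SAH arrays were all below the sham arrays, which held for 15.4% of all genes. Of the 6, 1 passed as lower, where 0.33% of all genes did. It was Smtn, which encodes the contractile protein smoothelin, at -1.18 ± 0.13 (SE; limma adjusted p = 0.0197). Its call ended without SAH array 4 (adjusted p = 0.0988), SAH array 5 (0.0701), sham array 6 (0.125) or sham array 7 (0.108). Of 6 measured endothelial markers none passed, and 5 had a difference below 0, from -0.76 for Cldn5 to -0.29 for Vwf, whereas Cdh5 differed by 0.61 ± 0.11 (adjusted p = 0.0776). The median over the 7 measured neuron and glia markers, relative to the sham mean of each gene, was -0.36, 0.06 and 0.27 in the SAH arrays. In the sham arrays it was -0.23, -0.19 and 0.39. Of these markers 4 had a difference above 0 and 3 below, and none passed. The part of the vessel wall's cell makeup, or of brain tissue, in the cytokine values was not tested.

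Without sham array 8, the 3 SAH arrays were set against sham arrays 6 and 7. The median difference over the 10 genes was then 0.99, against -0.02 over all genes. All SAH arrays lay above sham arrays 6 and 7 for Il1a, Il6, Ccl3, Ccl4 and Ccl20, 5 of the 10, where 16.9% of all genes did so and 21.9% had all SAH arrays below. Ccl4 differed by 1.41 ± 0.18 (SE; limma adjusted p = 0.0594), Ccl3 by 1.30 ± 0.31 (0.195) and Ccl20 by 0.96 ± 0.25 (0.225), in the same fit. Il6 differed by 1.85 ± 0.58 (SE) and Il1a by 1.49 ± 0.57, with limma adjusted p of 0.293 and 0.354. These 5 genes had an unadjusted p under 0.05, against 16.6% of all genes in that fit. None of the 10 passed after adjustment, where 0.495% of all genes passed as higher and 0.0275% as lower. Tnf, Cxcl1 and Cxcl2, which were below 0 with all arrays, differed by 0.37 ± 0.25, 0.17 ± 0.52 and 0.15 ± 0.50 (SE) without sham array 8. The remaining values were 0.93 ± 0.60 for Il1b and 1.03 ± 0.51 for Cxcl6. Sham array 8 was set aside for its values of these same genes, so the larger differences without it are a description. The same holds for Fcnb, Ccr2, Ccr1 and Ccl5, which were also higher in sham array 8 than in sham arrays 6 and 7.

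**Figure D3:**
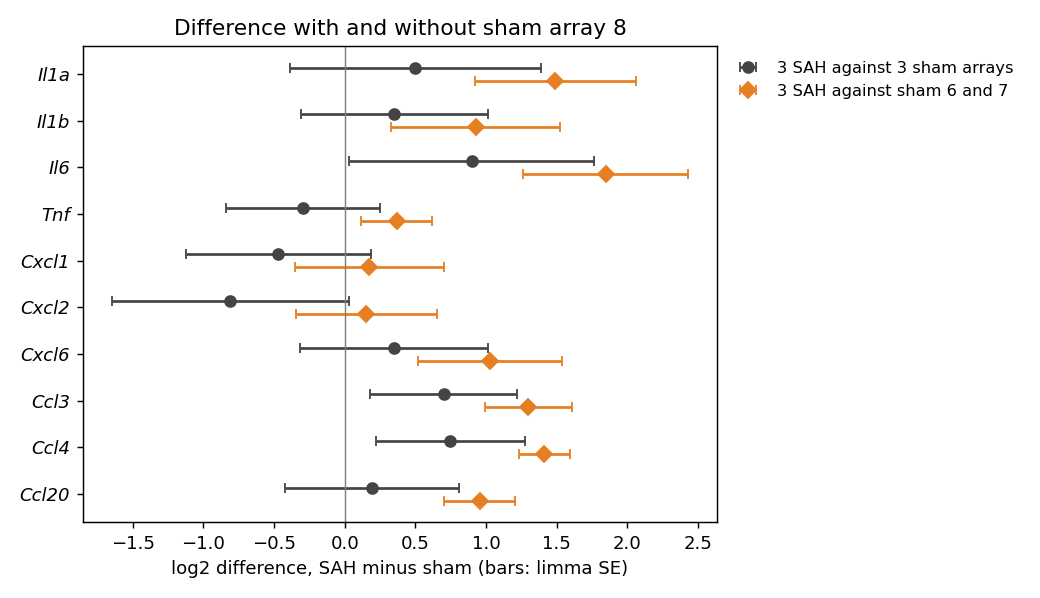
Log2 difference, SAH minus sham (horizontal axis), with limma's standard error as bars, for all 6 arrays (grey circles) and without sham array 8 (orange diamonds). Leaving out sham array 8 moves every gene to the right, most for Il1a, Il6 and Cxcl2, and takes Tnf, Cxcl1 and Cxcl2 from below to above 0.

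Set against Cxcl1 alone, the values of some genes did not overlap between the groups. No other gene was used as a reference. Each gene's value was taken relative to that of Cxcl1 on the same array, a reference chosen after the values were seen. The level of such a ratio depends on the probes, and only its change between arrays is read. Il6 relative to Cxcl1 stood at -0.11, -0.54 and 0.36 after SAH (arrays 1, 4 and 5) and at -1.76, -1.77 and -0.85 after the sham operation (arrays 6, 7 and 8). Every SAH array was above every sham array, sham array 8 included. The same held for Cxcl6, at -3.06, -3.55 and -2.89 against -3.98, -4.05 and -3.91, and for Ccl3 and Ccl4. The nearest SAH and sham arrays were 0.31 apart for Il6, 0.37 for Cxcl6, 0.08 for Ccl3 and 0.14 for Ccl4. This was so for 4 of the 9 other genes, and for 2.75% of all genes set against Cxcl1. These shares are not alike, because a gene with even values takes on the overlapping spread of Cxcl1 itself. A gene that varies with Cxcl1 does not. Cxcl1 also differed by -0.47, which raises every ratio after SAH. This shift is larger in size than each of the 4 gaps. Cxcl2 relative to Cxcl1 overlapped, at -1.85, -2.30 and -1.76 after SAH and -1.97, -1.92 and -0.996 in sham arteries. No test was made, since the reference was chosen from these values. An exact two-sided permutation test of 3 against 3 arrays cannot give less than p = 0.1.

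**Figure D4:**
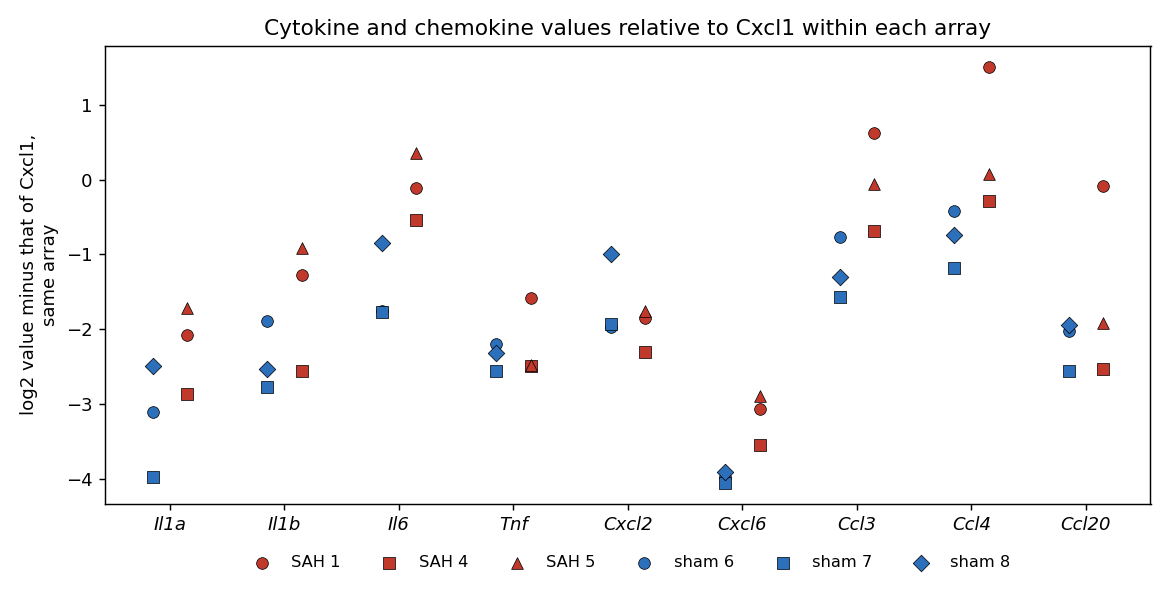
Log2 value of each of the other 9 genes minus the log2 value of Cxcl1 on the same array (vertical axis), with sham arrays in blue and SAH arrays in red. For Il6, Cxcl6, Ccl3 and Ccl4 all 3 SAH arrays lie above all 3 sham arrays.

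The receptors for these ligands were described from lists drawn up by role. Of 13 measured receptors, co-receptors and decoys, none passed in either direction, and their median difference was 0.09. Ccr1 and Cxcr2, both carried by leukocytes, were high in the SAH arrays and in sham array 8. Cxcr1, a neutrophil receptor, lay between 6.15 and 6.36 on all arrays, which is below the median of every array. Ccr1, a receptor for Ccl3, stood at 8.84, 9.29 and 9.89 after SAH (arrays 1, 4 and 5) and at 6.59, 6.77 and 9.09 after the sham operation (arrays 6, 7 and 8). Its difference was 1.86 ± 0.66 (SE; limma adjusted p = 0.266) with all arrays and 2.66 ± 0.30 (0.0425) without sham array 8. Cxcr2 stood at 9.94, 9.80 and 11.11 after SAH and 8.42, 7.84 and 10.22 in sham arteries, again with sham array 8 among the high ones. The natural blockers of interleukin-1 were likewise uneven. Il1rn, the receptor antagonist, stood at 10.70, 9.95 and 11.34 after SAH and 7.74, 7.65 and 10.20 in sham arteries, a difference of 2.13 ± 0.71 (SE; limma adjusted p = 0.241). Il1r2, the decoy receptor, differed by 1.62 ± 0.72 and the co-receptor Il1rap by 1.02 ± 0.29 (0.368 and 0.187). For Il1rap the SAH arrays were all above the sham arrays.

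Other receptors and signalling chains of the cytokines had small differences, apart from Tnfrsf1b. Il1r1, the signalling receptor of interleukin-1, differed by -0.27 ± 0.18, Tnfrsf1a by -0.13 ± 0.10, Il6st, the shared signalling chain of the interleukin-6 family, by -0.11 ± 0.11, and Il6r by -0.06 ± 0.12 (SE; limma adjusted p from 0.574 to 0.861). Tnfrsf1b, the second tumour necrosis factor receptor, stood at 10.89, 11.35 and 11.67 after SAH and 9.77, 9.90 and 10.55 in sham arteries. Its groups did not overlap, and it differed by 1.23 ± 0.27 (limma adjusted p = 0.109). Ccr6, the receptor of Ccl20, lay between 5.71 and 6.11 on all arrays, which is below the median of every array. Ackr2, a scavenging chemokine receptor, lay between 7.36 and 7.68.

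None of 16 adaptors and kinases of the interleukin-1 and tumour necrosis factor receptors passed (median 0.10), with Irak4 at -0.34 ± 0.10, Traf2 at 0.44 ± 0.15 and Irak3, a brake on this pathway, at 0.51 ± 0.21 (SE). None of 7 genes for processing enzymes and the inflammasome passed, and all 7 differences were above 0, with a median of 0.44. Casp1, which cleaves the interleukin-1 beta precursor, stood at 9.69, 10.56 and 10.38 after SAH (arrays 1, 4 and 5) and at 8.85, 9.30 and 9.26 after the sham operation (arrays 6, 7 and 8). Unlike the cytokines, it was no higher in sham array 8 than in sham array 7, and it differed by 1.08 ± 0.24 (limma adjusted p = 0.122). Casp4, an inflammatory caspase, differed by 1.07 ± 0.18, and Gsdmd, the pore-forming protein of pyroptosis, by 0.61 ± 0.14 (limma adjusted p = 0.0619 and 0.118).

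None of the 5 NF-kappaB subunit genes passed (median 0.21), with Rela at 0.07 ± 0.09 and Nfkb2 at 0.35 ± 0.22 (SE). Among 14 measured brakes on transcription or message stability none passed (median 0.14). Tnip1 and Tnip3, which restrain NF-kappaB signalling, differed by 0.99 ± 0.22 and 0.97 ± 0.17 (limma adjusted p = 0.121 and 0.0657). Il10, an anti-inflammatory cytokine, differed by 0.61 ± 0.10 (0.0513), at values between 5.70 and 6.44, which are below the median of every array. For all 3 the SAH arrays were all above the sham arrays, which held for 11.4% of all genes. Zfp36l1, which destabilises messages, differed by -0.50 ± 0.15 (0.204), with the SAH arrays below the sham arrays.

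Among 14 other early inflammatory ligands and enzymes 1 rose and none fell. The differences were above 0 for 9 of them and below 0 for 5, with a median of 0.14. For 5 of the 14, sham array 8 was at least 1 unit above both other sham arrays. Ebi3, a subunit of the cytokines interleukin-27 and interleukin-35, stood at 11.27, 11.41 and 11.63 after SAH (arrays 1, 4 and 5) and at 9.48, 8.99 and 9.74 after the sham operation (arrays 6, 7 and 8). All SAH arrays were above all sham arrays, by 2.03 ± 0.20 in the means (SE; limma adjusted p = 0.0114). The call ended without SAH array 4 (adjusted p = 0.0758), SAH array 5 (0.0553) or sham array 6 (0.0738). Ccl5, a chemokine for T cells and monocytes, stood at 10.89, 11.75 and 11.52 after SAH and 8.98, 8.85 and 9.97 in sham arteries, a difference of 2.12 ± 0.34 (limma adjusted p = 0.0545), and it passed without sham array 8 (2.48 ± 0.26, adjusted p = 0.0330). Nos2, inducible nitric oxide synthase, stood at 10.26, 10.86 and 12.22 after SAH and 7.61, 7.94 and 10.66 in sham arteries (2.38 ± 0.86, adjusted p = 0.276), and Ccl7 differed by 1.03 ± 0.46 (0.378). Of 15 measured targets in the vessel wall none passed (median 0.27), among them Sod2 at 0.60 ± 0.10 (0.0630), Birc3 at 0.94 ± 0.46, Lcn2 at 0.68 ± 0.29 and Timp1 at 0.25 ± 0.10. Over the 7 lists 84 of 91 genes were measured, and 1 rose (Ebi3) and none fell, a share close to the 0.963% of all genes that passed as higher. Sham array 8 was at least 1 unit above both other sham arrays for 16 of the 84, against 0.82% of all genes.

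**Figure D5:**
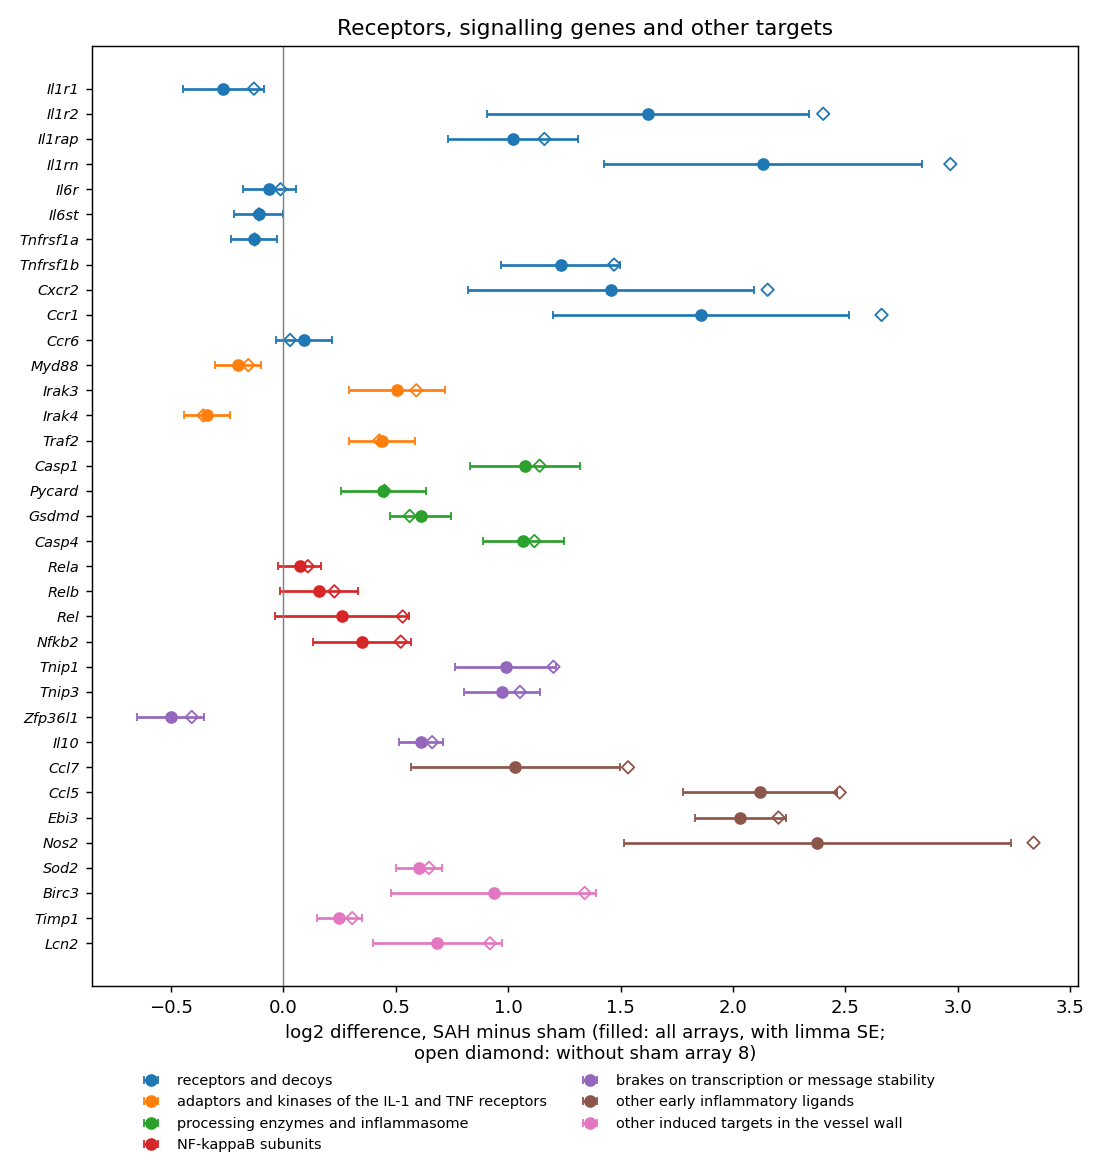
Log2 difference, SAH minus sham (horizontal axis), of receptors, signalling genes and other targets named from the lists, with all arrays (filled, with limma's standard error) and without sham array 8 (open diamonds). Il1rn, Il1r2, Cxcr2, Ccr1, Ccl7 and Nos2 move to the right without sham array 8, while Casp1, Casp4, Gsdmd and Il10 hardly move.

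The genes whose profile over the 6 arrays lay nearest to the mean profile of the 10, with each gene centred on its own mean, were Nfkbiz, Tfpi2, Nr4a1, Hyls1, Adamts4, Ifitm6, Fpr1 and Noct. The measure was the root mean square difference, which ran from 0.20 for Nfkbiz to 0.31 for Noct, against 0.22 (Cxcl6) to 0.59 (Cxcl2) for the 10 genes themselves, which are part of that mean. Nfkbiz, which encodes a nuclear cofactor of NF-kappaB, stood at 9.15, 9.997 and 10.46 after SAH (arrays 1, 4 and 5) and at 8.91, 9.25 and 10.90 after the sham operation (arrays 6, 7 and 8). Tfpi2, a protease inhibitor, stood at 11.15, 11.23 and 11.91 after SAH and 10.22, 10.54 and 12.61 in sham arteries. In both genes sham array 8 was the highest array. Fpr1, a receptor of neutrophils for bacterial peptides, is also in the neutrophil marker list.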

How the data were processed

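Total RNA from the arteries was labelled with biotin and hybridised to Affymetrix rat arrays, per the labels' protocols. The authors deposited 1 log2 expression value per probe set and array, made with Affymetrix Expression Console 1.1.2 and RMA, per the submitters' processing notes. A setting or genome build is not given in the sources used here. RMA equalises the arrays' distributions, so a general change in RNA amount cannot be seen, and it understates differences near background.

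The table has 36685 probe sets, and without its 190 Affymetrix controls 36495 entered the test. The platform annotation of GEO, with symbols updated through RefSeq (GRCr8), gave 1 gene for 18511, several for 575 and none for 17409. A gene was represented by its brightest probe set that names it alone. The groups were compared by limma 3.58.1 (R 4.3.3; lmFit, eBayes), two-sided and without covariates. P-values were adjusted by Benjamini-Hochberg over the 36495 probe sets, with a threshold of 0.05. The fit was tested on simulated data with independent noise for each probe set. Such data hold no shift shared by many genes on 1 array. The number of arrays limits the precision.

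The 10 genes, the 7 pathway lists and the 9 marker lists were chosen with earlier results of these data known. Named pathway genes were called genes, the 4 smallest p-values of each list, and the receptors of the 10 ligands. A listed receptor is not reported here, and Cxcr1 and Ackr2 were added after their values were seen. The 8 genes nearest in profile were taken by root mean square difference. Genes given as marker examples, and the reference Cxcl1, were chosen after their values were seen. Alternatives were a filter on dim probe sets, repeated quantile normalization, subtracted array medians, trend and robust options, array weights, a threshold of 0.10, each array left out, and the mean over a gene's probe sets. Planned protein comparisons of the CXC chemokines were not made here, and a stricter form of the NF-kappaB motif that had been planned is not reported.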

Additional observations from a re-analysis of the deposited data

How the results depend on the processing

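None of the 10 genes passed under any of the 13 alternatives. No paired analysis was possible because the SAH and sham arrays share no replicate numbers. Their median difference of 0.35 stood at 0.34 to 0.64 under the alternatives that keep all 6 arrays, and ran from -0.09 to 0.99 with 1 array left out. In these fits Il1a ran from -0.12 (without sham array 7) to 1.49, and was -0.04 without SAH array 5. Il1b was -0.27 without SAH array 5 and -0.06 without sham array 7, and rose to 0.93. Tnf ran from -0.63 to 0.37, Cxcl1 from -0.89 to 0.17 and Cxcl2 from -1.40 to 0.15, each highest without sham array 8, and Cxcl1 was 0.08 without SAH array 1. Cxcl6 was -0.0778 without SAH array 5, -0.07 without sham array 6 and 1.03 at most. Ccl20 was -0.15 without sham array 6, -0.22 without sham array 7 and 0.96 at most. Il6 (0.33 to 1.85), Ccl3 (0.29 to 1.30) and Ccl4 (0.32 to 1.41) kept their direction. Among the pathway genes Il6r, at -0.06 with all arrays, ran from -0.13 to 0.0140, the latter without SAH array 1. The count of pathway genes that rose was 1 with the settings used, where 0.963% of all genes passed as higher, and 6 with dim probe sets left out (3.17%), where 78 of the 84 remained. It was 5 with trend and robust options (1.33% of all genes), 6 with array weights (1.46%), 6 at a threshold of 0.10 (1.77%), and 0 to 9 with 1 array left out, the highest without SAH array 1 (2.68%). It was 3 without sham array 8 (0.495%) and 0 without SAH array 4 (0.22%), SAH array 5 (0.314%) or sham array 6 (0.16%). No pathway gene fell in any fit. Apart from the settings themselves, the cause of these shifts was not tested. Each of the 10 genes has 1 probe set, so the mean over probe sets left their values as they were.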
